A study of Cyprinus carpio with 6 samples.

Results

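The spliceosome and hnRNP genes described here are the annotated genes whose symbols start with snrp, sf3a, sf3b, srsf, prpf, lsm plus a digit, u2af or hnrnp. The rule used names alone and no measured value, and it found 49 of the 40568 genes and loci that had a count in any library. The data came from RNA-Seq of common carp (Cyprinus carpio) embryos at the mid-blastula stage. Embryos obtained with fresh sperm (0 days after stripping, 3 libraries) were compared with embryos obtained with sperm kept for 14 days after stripping (the aged group, 3 libraries). Fresh and stored sperm were taken from the same males, stored sperm was kept on ice in an extender, and all oocytes came from a single female. The labels give no genotype or other treatment that separates the groups, and the shared mother limits both groups to the maternal RNA of 1 fish. The paper mentions multiple hormone injections and stripping of the males. Whether the stripping occasion differed between fresh and stored sperm is not stated, so its part cannot be told apart from storage. No source used here ties a replicate number to a male, so no p-value below covers more than the variation from library to library. In RNA from whole embryos, fewer cells with a transcript and less transcript per cell cannot be told apart.

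The spliceosome removes introns from pre-mRNA. Its U1, U2, U4 and U5 particles each carry a ring of Sm proteins around a small nuclear RNA, whereas U6 carries a ring of LSm proteins. U1 marks the start of the intron, U2AF reads its end, and SF3a and SF3b hold U2 at the branch point. SR proteins (srsf genes) and hnRNPs bind the pre-mRNA and help to set which sites are used. Before the mid-blastula transition a fish embryo lives mostly on mRNA loaded into the egg, and the protein-coding mRNAs measured here do not include the small nuclear RNAs themselves.

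All 49 genes were listed in all 6 libraries, and 45 passed the filter on low counts. The 4 that did not pass were hnrnph3 with 1 to 2 counts a library, hnrnpua with 2 to 9, hnrnpul1 with 5 to 10 and srsf10a with 4 to 13. The libraries held 14993459 to 15632387 counts, of which the 49 genes took 0.448% to 0.488%. On the carp assembly ASM1834038v1, 34 of the genes lay on B chromosomes and 15 on A chromosomes, which carry the 2 subgenomes of this tetraploid fish. Of the 32765 annotated genes with a count, 24674 had only a LOC symbol and could not be reached by the rule, so partner copies with such names are not covered. Estimated counts were fractional for 24 of the 49 genes, where reads had been divided between loci, and these are uncertain to that extent. On the first principal component both replicate 3 libraries lay far from the other 4, at 44.0 (fresh) and 53.2 (aged) against -28.6 to -15.2.

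Marker genes were set beside the stage label. High maternal transcripts do not tell mid-blastula from an earlier stage, so the label itself was not tested. The maternal cyclins ccna1 and ccnb1 stood at 2116 ± 146 and 2006 ± 170 CPM (counts scaled to library size) in the fresh group, and the pluripotency factor nanog at 817 ± 48.2 (SD, n = 3). The mesoderm and endoderm genes ndr1 and sox32 were at or below 0.192 CPM in both groups' means. On the same list mxtx2 had means of 0.262 (fresh) and 0.366 CPM (aged), and gata6 0.155 and 0.152 CPM. Summed blood and muscle markers reached 2.20 CPM at most. The defining sperm tail genes tekt2, tekt3 and spag6 did not exceed 0.283 CPM in either group's mean, while rsph9 had 0.509 (fresh) and 0.648 CPM (aged). The ovarian follicle genes fshr, foxl2a and foxl2b did not exceed 0.0218 CPM in either group's mean. Means of amh were 0.315 (fresh) and 0 CPM (aged), whereas lhcgr and zp3b stood at 42.7 and 46.1 CPM in the fresh group. The 12 genes with a count on the list of sperm markers summed to 33.0 to 38.4 CPM in the fresh group and 29.0 to 31.5 CPM in the aged group. Nearly all of it was spata18, which is not one of the defining sperm tail genes, so the sum is not read as sperm tail RNA. The next highest, dnah9, had means of 1.131 CPM (fresh) and 1.135 CPM (aged). The gene spata18 had 30.5, 33.5 and 35.9 CPM in the fresh libraries and 27.6, 26.5 and 28.7 CPM in the aged ones. Its part in the results below was not tested.

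Most of the 49 genes were abundant messages of the embryo, but not all. Levels of different genes are given in FPKM, fragment counts scaled by transcript length and library size, as means over the 6 libraries. The median of the 45 tested genes was 62.3 FPKM, against 5.0 FPKM for all 27342 tested genes. Of the 49, 38 lay above that level and 11 below it. The median within-group coefficient of variation of the 45 tested genes was 7.92%, against 11.8% for all tested genes. Their median level was also higher, at 68.3 against 10.7 CPM, and genes of like level were not compared. The spread among the 49 was large, from snrpd3 at 335 FPKM to hnrnph3 at 0.05 FPKM, and the 10 highest held 55.3% of their summed FPKM.

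**Figure D1:**
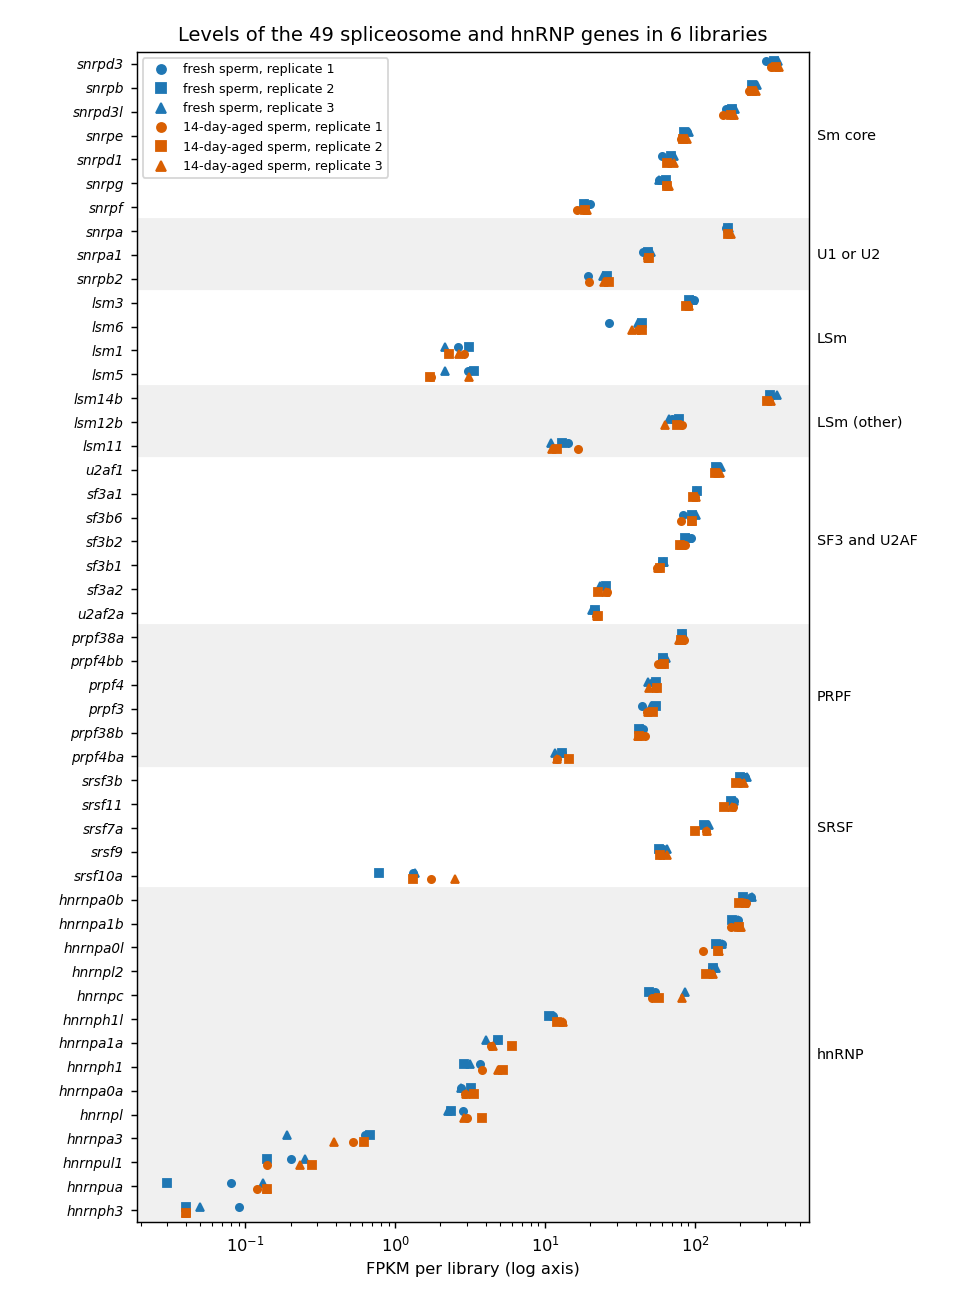
FPKM (log axis) of each of the 49 genes in each library, grouped by role and ordered by mean level. Blue marks fresh sperm, orange 14-day-aged sperm, and the marker shape gives the replicate. The Sm genes spread from 18.4 to 335 FPKM, whereas the hnRNP genes run from 0.05 to 218 FPKM, and at most genes the colours overlap.

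Within the Sm ring, whose members assemble in equal numbers, mRNA levels were not equal. The gene snrpd3 had 335 FPKM and snrpb 244 FPKM, while snrpe, snrpd1 and snrpg had 85.8, 67.6 and 62.3 FPKM and snrpf only 18.4 FPKM. The D3-like gene snrpd3l added 172 FPKM. No gene with the symbol snrpd2, another Sm ring gene, was found, and copies with LOC symbols were not counted. These are therefore levels of single named genes, not the whole mRNA for each ring protein. In single libraries snrpf ran from 16.3 to 19.8 FPKM and snrpd3 from 296 to 361 FPKM, so that the gap between them was far wider than the spread over libraries. The middle of the order, snrpg and snrpd1, could not be separated, since their ranges of 57.3 to 66.9 and 60.2 to 72.8 FPKM overlapped.

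Among the proteins specific to U1 or U2, snrpa, whose protein binds a loop of U1, stood at 167 FPKM. The genes snrpa1 and snrpb2, whose proteins bind U2 together, stood at 48.4 and 23.4 FPKM. The LSm genes split in a similar way, with lsm3 at 92.1 FPKM and lsm6 at 39.3 FPKM but lsm5 at 2.51 FPKM. All 3 proteins belong to the U6 ring, but here too copies with LOC symbols were not counted. The gene lsm1, whose protein takes part in the cytoplasmic ring that promotes mRNA decapping, had 2.61 FPKM. It is kept with lsm3, lsm5 and lsm6 in the LSm class and its sums. Of the other LSm genes, classed apart as outside the spliceosome, lsm14b was second only to snrpd3 at 318 FPKM. Its product is an mRNA-binding protein of the family linked to translational repression. The others, lsm12b and the U7 particle gene lsm11, which serves histone mRNA 3′ ends, had 72.5 and 12.9 FPKM.

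At the 3′ end of the intron, u2af1 (the small U2AF subunit, which reads the terminal AG) had 141 FPKM and u2af2a (the large subunit, which reads the pyrimidine tract) 21.6 FPKM. The SF3a and SF3b genes ran from sf3a2 at 24.6 FPKM to sf3a1 at 100 FPKM, with sf3b6, sf3b2 and sf3b1 at 91.8, 85.6 and 59.0 FPKM. The prpf genes, which act in the U4/U6 and U5 particles or in activation, ran from prpf4ba at 12.6 FPKM to prpf38a at 81.4 FPKM, with the U4/U6 proteins prpf4 and prpf3 at 52.4 and 49.6 FPKM. All tested SR genes were abundant, at 206 FPKM for srsf3b, 174 FPKM for srsf11, 116 FPKM for srsf7a and 60.7 FPKM for srsf9.

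The hnRNP genes were of a high and a low set. Mean levels of 218, 188, 140, 129 and 63.2 FPKM were found for hnrnpa0b, hnrnpa1b, hnrnpa0l, hnrnpl2 and hnrnpc. The other 9, from hnrnph1l at 11.9 FPKM down, included hnrnph1 at 3.92 FPKM and hnrnpa3 at 0.505 FPKM. Pairs of related genes were therefore uneven. For the pairs whose symbols differ only in a final a or b, hnrnpa0b held 98.3% to 98.9% of the summed FPKM with hnrnpa0a, hnrnpa1b held 97.0% to 98.0% with hnrnpa1a, and prpf4bb held 81.1% to 84.7% with prpf4ba. The prpf4b kinases phosphorylate splicing factors. In prpf38a and prpf38b the split was milder, with 64.4% to 65.8% held by prpf38a.

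Further pairs were set side by side after their values had been seen. The gene hnrnpl2 held 96.9% to 98.4% of its sum with hnrnpl, hnrnph1l held 69.7% to 78.7% with hnrnph1, and hnrnpa0b held 58.1% to 65.7% with hnrnpa0l. The last pair are neighbours on chromosome A14, 1462 bases apart. The gene snrpd3 held 64.7%, 65.6% and 66.0% of its sum with snrpd3l in the fresh libraries and 67.3%, 66.5% and 66.6% in the aged ones. These shares did not overlap between groups, but the means, 65.4 ± 0.675% and 66.8 ± 0.473%, differed little (SD, n = 3). It was the only pair compared without overlap, and the share of such pairs among other genes was not counted. The estimated counts of snrpd3l were fractional, and its mean transcript length, which enters FPKM, ran from 597 to 612 bases over libraries.

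**Figure D2:**
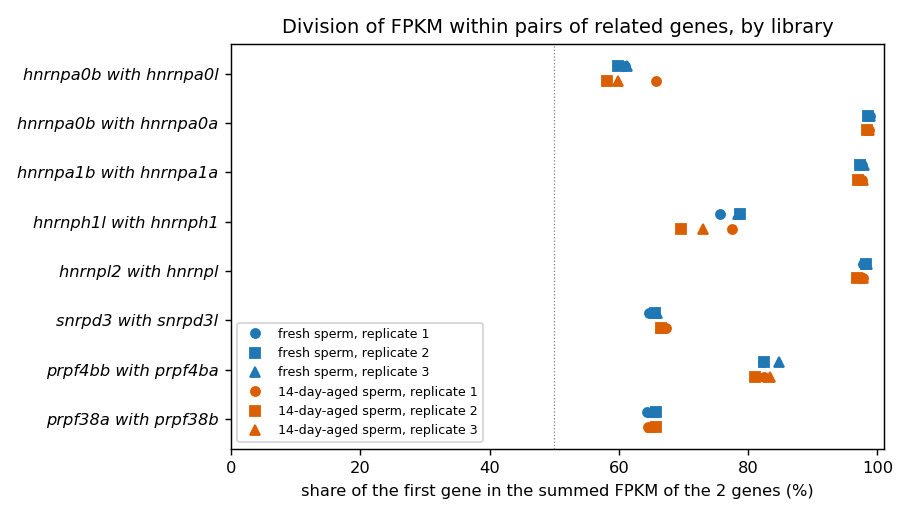
Share of the first gene (%) in the summed FPKM of each pair of related genes, in each library, with the dotted line at 50%. Fresh libraries are blue and aged ones orange. In all pairs 1 gene supplied more than 58% of the sum in every library, and only in snrpd3 with snrpd3l did the groups not overlap. The share of pairs without overlap among other genes was not counted.

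No spliceosome or hnRNP gene differed between embryos from aged and fresh sperm at an adjusted p under 0.05 (0 of 45, edgeR quasi-likelihood test, Benjamini-Hochberg adjusted across 27342 genes). Over all genes the share called was 0.0146%, or 4 genes, and the smallest adjusted p of the 45 was 0.9998. DESeq2 called none of the 45 either, against 0.163% of the genes it adjusted, and limma on log2(FPKM + 1) called none. Before adjustment 1 gene was higher and 1 lower at p under 0.05 in edgeR, 4.44% of the 45 against a background of 3.36%. At DESeq2's unadjusted p under 0.05 there were 2 of the 45 genes, also 4.44%, sf3b1 and sf3b2, both lower in the aged group. The share was 1.82% over the 40460 genes with a DESeq2 p-value. Those include genes below the filter on low counts, so the 2 shares have unlike bases.

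The estimates were tight for most of these genes. The 95% interval of the fold change lay inside a 1.5-fold change in either direction for 40 of 45 genes, and inside a 2-fold change for 43, the others being lsm5 and hnrnpa3. The log2 fold changes (aged minus fresh) ran from -0.38 to 0.52 with a median of -0.02, against -0.0009 over all tested genes. Of the 45, 17 were above 0 and 28 below. Summed over the 49 genes, the level was 4763 ± 261 CPM in the fresh group and 4579 ± 244 CPM in the aged group (SD, n = 3; CPM scaled by TMM, the trimmed mean of M-values). The 3 fresh sums of 4660, 4570 and 5060 CPM overlapped the aged sums of 4395, 4485 and 4855 CPM. Each aged sum was below the fresh sum of the same replicate number, but no label ties the numbers to males. Results with the replicate number as a block are given further below.

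**Figure D3:**
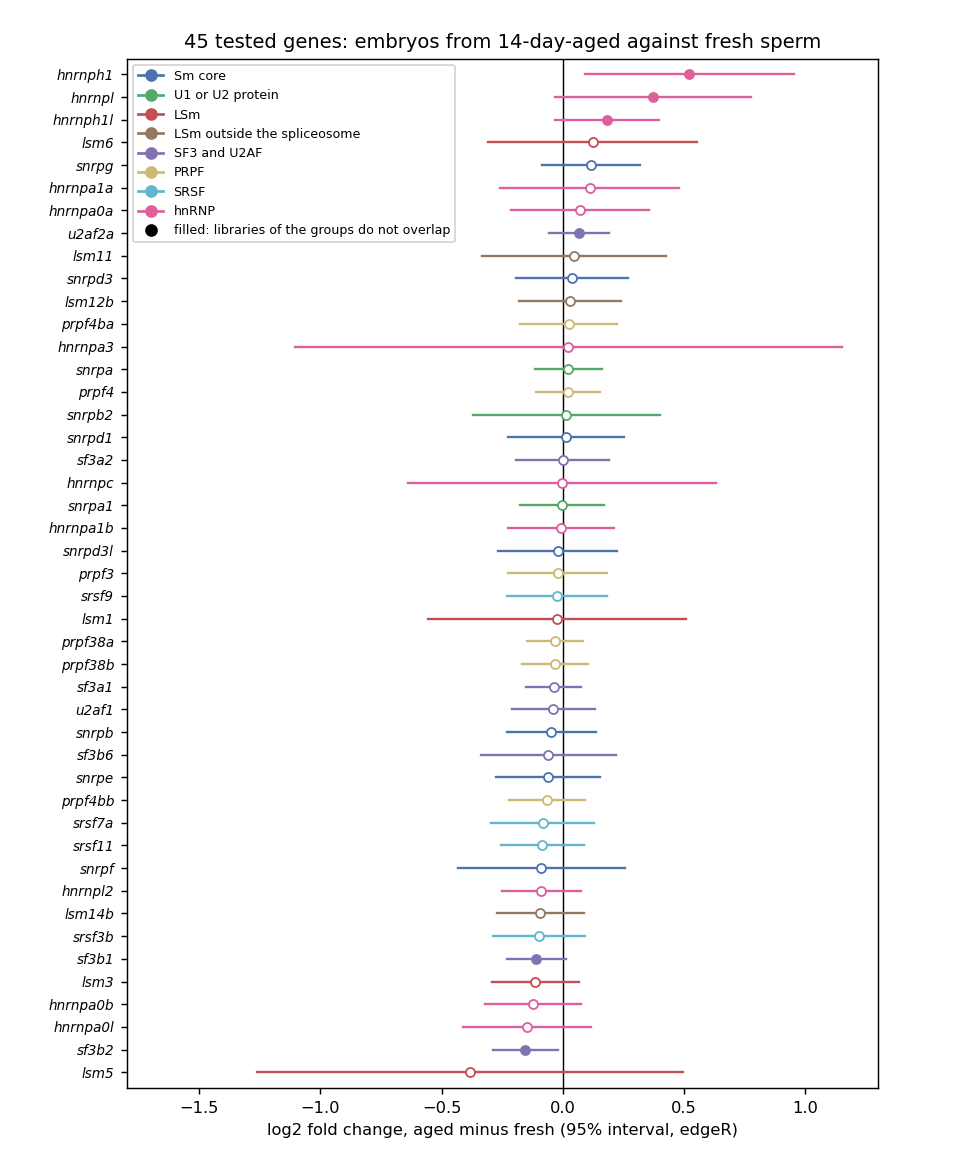
Log2 fold change, aged minus fresh, of the 45 tested genes with its 95% interval from edgeR, coloured by role and ordered by size. Filled points are the 6 genes with no overlap between fresh and aged libraries. Only the intervals of hnrnph1 (0.09 to 0.95) and sf3b2 (-0.29 to -0.02) leave out 0, before any adjustment over genes.

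Fresh and aged libraries had no overlap in TMM-scaled CPM for 6 of the 45 genes, or 13.3%, against 8.56% of all tested genes. The 4 higher in the aged group were hnrnph1, hnrnph1l, hnrnpl and u2af2a, and the 2 lower were sf3b1 and sf3b2. With both replicate 3 libraries left out, an alternative chosen after seeing the data, the count was 4 higher and 10 lower. That is 31.1% of the 45, and with 2 libraries a group 32.4% of all genes had no overlap. In this setting none of the 45 was under an unadjusted p of 0.05 in edgeR, against 4.11% of all genes.

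The largest change was in hnrnph1 (chromosome B14, bases 11160334 to 11170467), which encodes a protein that binds runs of G near exons. Its level was 5.18, 4.06 and 4.78 CPM in the fresh libraries and 5.34, 7.72 and 7.10 CPM in the aged ones. The groups did not overlap, though aged replicate 1 lay close to fresh replicate 1. The log2 fold change was 0.52 (SE 0.183), with an unadjusted p of 0.0238 in edgeR and 0.0541 in DESeq2, and an edgeR adjusted p of 0.9998. These values rested on 62.2 to 119 estimated counts a library, some of them divided with other loci.

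The related hnrnph1l, on chromosome A21, was more abundant and moved less. It stood at 18.0, 16.8 and 18.8 CPM in the fresh libraries and at 20.3, 19.0 and 21.6 CPM in the aged ones. The lowest aged library was just above the highest fresh one, and the log2 fold change was 0.18 (SE 0.0906). For hnrnpl, whose protein binds CA-rich RNA, the fresh libraries had 4.65, 3.80 and 3.82 CPM and the aged ones 4.84, 6.22 and 4.85 CPM. Aged replicate 2 was the highest by far, and the log2 fold change was 0.37 (SE 0.172), or 0.24 without that library. In contrast, hnrnpl2, which supplied nearly all of the pair's FPKM, had a log2 fold change of -0.09 (SE 0.0691) with overlapping groups.

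The gene u2af2a was nearly constant in the fresh group, at 54.9, 54.9 and 54.8 CPM, and stood at 55.4, 58.0 and 59.0 CPM in the aged group. The groups did not overlap, but the log2 fold change was only 0.07 (SE 0.0523). Its partner u2af1 had a log2 fold change of -0.04 (SE 0.0729), with overlapping groups.

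The SF3b genes sf3b1 and sf3b2, whose products hold U2 at the branch point, were lower in every aged library than in every fresh one, although neither passed the adjusted test. The gene sf3b2 (chromosome B7, bases 5900544 to 5914900) had 234, 214 and 236 CPM in the fresh libraries and 210, 197 and 208 CPM in the aged ones. The highest aged library lay just under the lowest fresh one. The log2 fold change was -0.15 (SE 0.0564), with an unadjusted p of 0.0293 in edgeR and 0.0103 in DESeq2, and an edgeR adjusted p of 0.9998. For sf3b1 (chromosome A9, bases 18439017 to 18450486) the values were 251, 252 and 267 CPM against 228, 242 and 244 CPM. The groups did not overlap here either, and the log2 fold change was -0.11 (SE 0.0518, unadjusted p = 0.0709 in edgeR).

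The other SF3 genes did not share this order. In sf3b6 the fresh libraries had 39.9, 44.9 and 49.8 CPM and the aged ones 36.9, 45.6 and 46.7 CPM, with wide overlap. The log2 fold changes of sf3a1 and sf3a2 were -0.04 (SE 0.0486) and -0.0001 (SE 0.0817). Over the 7 SF3 and U2AF genes, summed CPM was 966, 954 and 1012 in the fresh libraries and 906, 914 and 961 in the aged ones, a ratio of 0.949 between the group means, and the groups overlapped. Scaled by the total count alone, the same sums were 976, 962 and 976 CPM against 922, 922 and 939 CPM, which did not overlap. In summed FPKM the groups overlapped. By total count the LSm genes also had no overlap, with 50.85 to 52.09 CPM (fresh) against 48.74 to 50.16 CPM (aged). The same held for the LSm genes outside the spliceosome, with 518.9 to 558.9 against 500.4 to 517.8 CPM. Both of these LSm sums overlapped between groups in TMM-scaled CPM and in FPKM. By total count the sums of the other classes overlapped, as did the sum over all 49 genes, at 4607 to 4881 (fresh) against 4477 to 4743 CPM (aged). How often summed levels of other gene sets have no overlap was not counted.

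The remaining classes showed no gene without overlap. All 4 tested SR genes had negative log2 fold changes, from -0.10 (srsf3b) to -0.02 (srsf9), each with overlapping groups and with aged replicate 2 at the lowest value in 3 of the 4. The untested srsf10a went the other way, with means of 0.40 CPM (fresh) and 0.64 CPM (aged), near the floor. Summed Sm CPM was 443 ± 31.9 in the fresh and 440 ± 40.6 in the aged group, a ratio of 0.993, and for the U1 and U2 proteins the ratio was 1.01. The lowest estimate of all was that of lsm5, at -0.38 with an SE of 0.373, which rested on 9 to 17 counts a library. Without aged replicate 3 its log2 fold change was -0.75, and without aged replicate 1 it was -0.21. In hnrnpa0l, at -0.15, aged replicate 1 was low at 179 CPM while the other 5 libraries held 222 to 252 CPM, and without that library the estimate was -0.03.

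Many of these genes set the replicate 3 libraries apart. Both replicate 3 libraries lay outside the range of the other 4 in 23 of 45 genes (51.1%), 19 of them higher and 4 lower, whereas over all tested genes this share was 27.8%, with 3889 higher and 3710 lower. The 4 lower were hnrnpa3, lsm11, lsm12b and prpf4, named after their values had been seen. Against the mean of replicates 1 and 2 of its own group, replicate 3 was higher in both groups for 29 genes and lower in both for 8. All these counts used TMM-scaled CPM. The TMM factors were lowest in replicate 3, at 0.967 (fresh) and 0.979 (aged) against 1.01 to 1.02 in the other libraries. A lower factor raises the CPM of every gene in a library, and the counts were not made under another scaling. Genes outside the 45 were set apart too. In replicate 3 the splicing gene rnps1 had 397.5 (fresh) and 393.9 CPM (aged), against 329.2 to 358.7 CPM in the other 4 libraries. For the maternal cyclin ccnb1 these were 2202 and 2142 against 1845 to 1986 CPM. The snRNP assembly gene mepcea was lower, at 252.3 and 245.5 against 253.5 to 276.2 CPM. The share among other splicing genes was not counted.

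The clearest case, also chosen after seeing the values, was hnrnpc, whose protein packages nascent transcripts and binds U-rich stretches. It had 81.5, 73.9 and 134 CPM in the fresh libraries and 75.6, 85.9 and 127 CPM in the aged ones. Replicate 3 was the highest library in each group, and the mean of the replicate 3 libraries was 1.65 times that of the other 4. Between fresh and aged its log2 fold change was -0.003 (SE 0.269). What sets replicate 3 apart was not tested, since the labels give no batch.

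**Figure D4:**
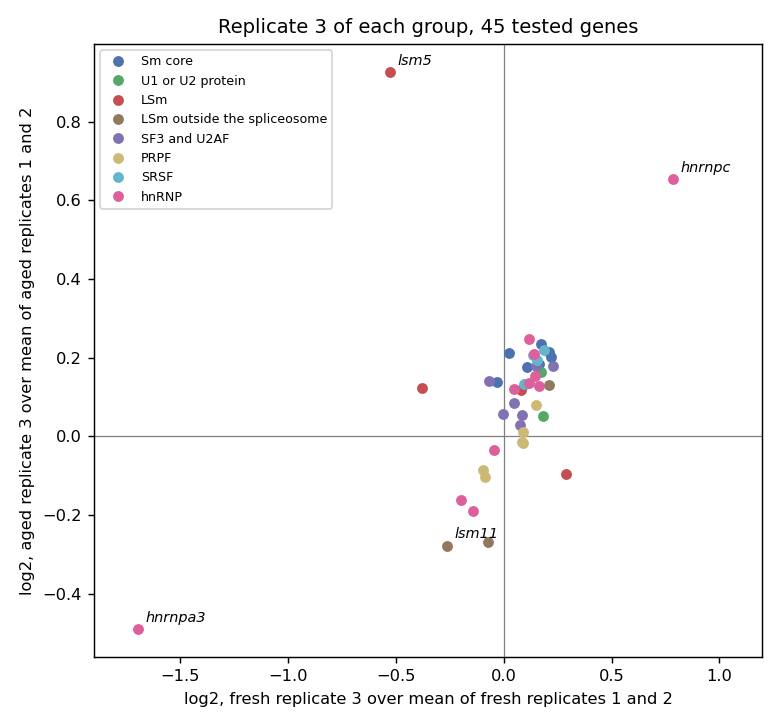
Log2 ratio of replicate 3 to the mean of replicates 1 and 2 within the fresh group (x axis) and within the aged group (y axis) for the 45 tested genes, coloured by role. Most points lie in the upper right (29 of 45), with hnrnpc farthest along it at 0.78 and 0.65, and 8 genes lie opposite, in the lower left.

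Other genes of the splicing machinery gave a similar picture. Across 8 lists of factors outside the symbol rule 73 genes were tested, and edgeR called 0 of them at an adjusted p under 0.05. At an unadjusted p under 0.05 there were 0 higher and 2 lower genes, 2.74% against the background of 3.36%. Their median log2 fold change was -0.06, with 18 genes above 0 and 55 below, while over all tested genes 13588 were above and 13754 below. Fresh and aged libraries had no overlap in TMM-scaled CPM for 1 of the 73 genes on the higher side and 4 on the lower. That is 6.85% against 8.56% of all tested genes, and plrg1, wdr77 and ddx17 were among the 4.

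The first of the 2 genes lower at unadjusted p under 0.05 was plrg1, a core protein of the Prp19 complex that activates the spliceosome. It had 347, 337 and 351 CPM in the fresh libraries and 321, 307 and 325 CPM in the aged ones, with no overlap. Its log2 fold change was -0.12 (SE 0.0484, unadjusted p = 0.0429 and adjusted p = 0.9998 in edgeR). The second was rbm25b, an RNA-binding protein linked to the U1 particle, with 91.0, 75.6 and 92.5 CPM against 62.4, 80.8 and 71.6 CPM. Its groups overlapped, and the log2 fold change was -0.27 (SE 0.115, unadjusted p = 0.04998 in edgeR).

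Among the abundant and the closest other genes of the lists, the tri-snRNP gene sart1 had a log2 fold change of -0.09 (SE 0.0774). The minor-spliceosome gene pdcd7 had -0.11 (SE 0.0644). Of the snRNP assembly factors, mepcea had -0.07 (SE 0.0569) and wdr77, a partner of the methyltransferase that modifies Sm proteins, -0.22 (SE 0.102). The helicases dhx8 and ddx17 had -0.06 (SE 0.0836) and -0.23 (SE 0.132), and the exon junction genes rnps1 and magoh -0.03 (SE 0.0828) and -0.06 (SE 0.0581).

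The only tested gene of these lists that was higher in every aged library was srpk2, a kinase of SR proteins, with 2.75, 1.44 and 3.35 CPM against 3.89, 4.47 and 3.82 CPM. Its log2 fold change was 0.69 (SE 0.300), at an unadjusted p of 0.0536 in edgeR and an adjusted p of 0.9998. The SR-related gene scaf8 had -0.06 (SE 0.0731). Of the other regulators, taf15 had -0.02 (SE 0.0568) and ewsr1b -0.14 (SE 0.0697).

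**Figure D5:**
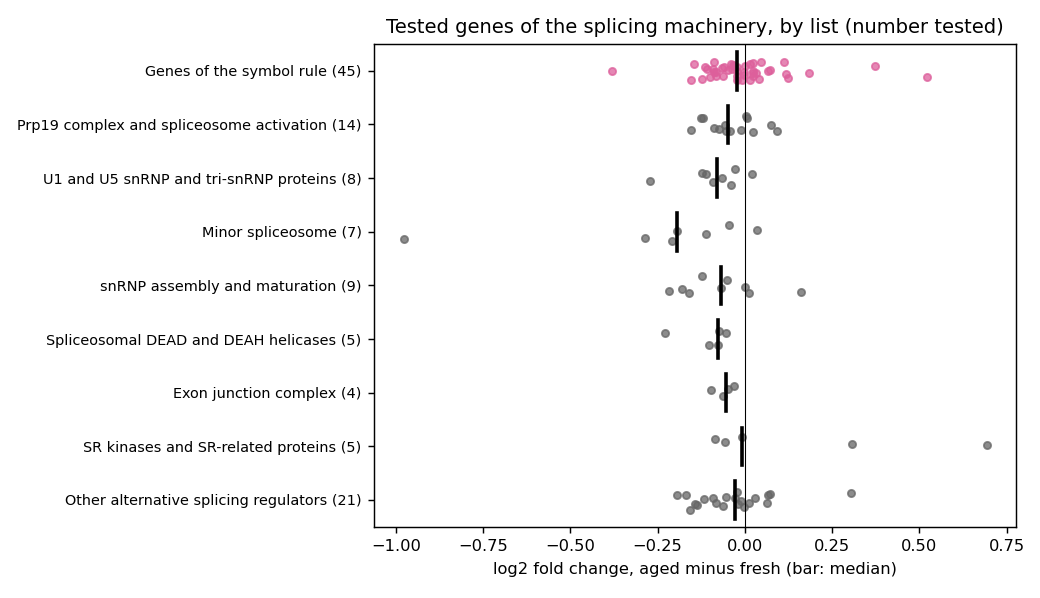
Log2 fold change, aged minus fresh, of each tested gene of the symbol rule (45, pink) and of 8 lists of other splicing genes (grey), with a bar at each median and the number tested in brackets. All 8 list medians lie below 0, and none of the genes passed the adjusted test.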

How the data were processed

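Embryo RNA was enriched for poly(A) mRNA and sequenced on DNBSEQ. Clean reads were mapped by the authors with HISAT2 (assembly ASM1834038v1), StringTie and Cuffmerge gave the transcript set, Bowtie2 placed the reads on it, and the deposited tables name RSEM. Versions are not given in the sources used here. The deposited values were estimated counts per gene, which keep fractions where reads match several loci, and the authors' FPKM. Genes at 0 are not listed in a library's table and were set to 0. A deposited table of the authors' own comparison (fold changes and p-values) and 12 per-library columns were not used.

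Estimated counts were rounded to whole numbers, filtered with filterByExpr, scaled by TMM and tested with edgeR 4.0.16 (quasi-likelihood, R 4.3.3) over all genes, aged against fresh, 3 libraries each, with Benjamini-Hochberg adjustment and a threshold of 0.05. Alternatives used DESeq2 1.42.0 and limma 3.58.1 on log2(FPKM + 1). The test was checked on simulated data. No replicates were identical. Precision is limited by 3 libraries a group and, for low genes, by counting. With 3 against 3, a permutation test of 1 gene cannot go below p = 0.1, so none was used.

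Genes named in the text were those under an unadjusted p of 0.05, those without overlap between groups, the 2 highest and the lowest by FPKM in each class, the 3 largest changes in each direction and those below the filter; other genes carry ranges or are named as chosen afterwards or as levels of their class. From each list of other splicing factors the gene of highest count and that of smallest p were named. The genes and the lists were chosen with earlier results of these data known. Gene positions come from the RefSeq gene table of the same assembly, in which all 49 symbols were found.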

Additional observations from a re-analysis of the deposited data

How the results depend on the processing

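The count of spliceosome and hnRNP genes at an adjusted p under 0.05 was 0 under all 14 alternatives, and the median log2 fold change ran from -0.06 to 0.01 when each library was left out, above 0 only without aged replicate 1. The count higher at an unadjusted p under 0.05, 1 in the main test, was 0 without both replicate 3 libraries and in DESeq2, 2 in limma on log2(FPKM + 1), and 0 to 2 when each library was left out in turn. The count lower, also 1, was 6 of 45 with the replicate block. In that setting 1 gene was higher, and 5.74% of all genes were under that p in either direction. That share is to be read against the 6 lower and 1 higher genes of the 45 together. The count lower was 0 without both replicate 3 libraries, 2 in limma and in DESeq2, and 0 to 2 with 1 library left out. Over all genes the share under that p, both directions together, was 4.11% without both replicate 3 libraries. It was 4.08% in limma, 1.82% in DESeq2 and 3.15% to 4.27% with 1 library left out. Fewer libraries leave more genes without overlap by construction, so the counts without overlap are read only against all genes. The count lower, 2 or 4.44% against 4.46% of all genes, ran from 2 to 9 with 1 library left out. It was 5 without fresh replicate 2 (11.1% against 9.17%), 9 without aged replicate 3 (20.0% against 10.2%) and 10 without both replicate 3 libraries (22.2% against 16.7%).

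With the replicate block the smallest adjusted p of the 45 genes was 0.699, and 1569 of all genes were under an unadjusted p of 0.05 against 920 without it. The 6 lower genes under that p were hnrnpa0b, hnrnpl2, lsm14b, sf3b1, sf3b2 and srsf3b. The 1 higher gene was hnrnph1l, whereas hnrnph1 had an unadjusted p of 0.0574 in edgeR with the block. Deviations of same-numbered libraries correlated at -0.0024, 0.0375 and 0.0886 over 27342 genes and at 0.212, 0.278 and 0.465 over the 45. Over the 45 each fresh library correlated best with its own number, but over all genes fresh replicate 1 did not. The shift that the replicate 3 libraries share in most of the 45 enters these correlations, so they cannot show whether same-numbered libraries are pairs. As no label ties the numbers to males, they were not taken as pairs.

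None of the 30 spliceosome and hnRNP genes named by rule passed the adjusted test under any alternative, and 15 of 30 kept their sign under all of them. Signs turned in limma for hnrnpa1b (0.029) and snrpa1 (0.010), and without both replicate 3 libraries for hnrnpa3 (-0.20), prpf38a (0.0049) and snrpa1 (0.042). With 1 library left out the log2 fold change ran from -0.078 to 0.075 in hnrnpa1b, -0.35 to 0.29 in hnrnpa3, -0.12 to 0.14 in lsm11, -0.035 to 0.12 in lsm12b, -0.058 to 0.23 in lsm6, -0.060 to 0.079 in prpf4ba, -0.019 to 0.056 in snrpa, -0.051 to 0.059 in snrpa1, -0.11 to 0.01 in snrpb, -0.099 to 0.15 in snrpb2, -0.027 to 0.11 in snrpd3, -0.16 to 0.0066 in snrpf, -0.095 to 0.042 in srsf9 and -0.097 to 0.011 in u2af1. Without a turn of sign, it ran from -0.75 to -0.21 in lsm5, -0.23 to -0.03 in hnrnpa0l, 0.24 to 0.48 in hnrnpl and 0.41 to 0.66 in hnrnph1. The cause was not tested. The genes of the other splicing lists were not run under the alternatives. Counts summed with those of the closest protein copy were not run, since no carp proteins were used here.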

Other observations

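The tables also give the mean length of the transcripts counted for each gene in each library, which differs between libraries only where a gene has several transcripts, as 19 of the 49 genes do. The widest range was in hnrnph1, with 7 annotated transcripts, where the mean length of the longest library was 1.04 times that of the shortest. For hnrnpa1b that ratio was 1.03, for snrpd3l 1.02 and for hnrnpl 1.01. The division of counts between transcripts is an estimate, and no test was made of it.

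Among the 49 genes 3 adjacent pairs lay within 200000 bases of each other. The SR gene srsf7a and hnrnpl lay 2034 bases apart on chromosome B5, at 116 and 2.85 FPKM. The genes snrpa and hnrnpul1 lay 155161 bases apart on chromosome B18, at 167 and 0.207 FPKM. The pair hnrnpa0l and hnrnpa0b, 1462 bases apart, stood at 140 and 218 FPKM.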
